A study of Mus musculus with 25 samples.

Results

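The genes described here are 10 genes that mature pancreatic beta cells are described as keeping at very low RNA levels, often called disallowed genes: Ldha, Slc16a1, Acot7, Oat, Mgst1, Cxcl12, Igfbp4, Pdgfra, Zfp36l1 and Arhgdib. They were taken by symbol, 10 of 24439 genes in the RNA-seq tables, together with the 53 of 65053 consensus ATAC-seq peaks whose nearest gene was given as a member. The study profiled 2 mouse islet tumour lines, αTC1 (alpha TC1 clone 6) and βTC6 (beta-TC-6). RNA-seq was done on 3 libraries of each line, and ATAC-seq on 5 libraries of each line and on 9 libraries of the lines mixed in steps of 10% of the cells, 1 library for each composition. The labels give no treatment for either line, and each is a single established line, αTC1 a clone, made from mice that carry a viral tumour antigen under a hormone gene promoter. The lines were grown in different products of Dulbecco's Modified Eagle's Medium, whose own glucose and pyruvate the paper does not list. Glucose, HEPES, non-essential amino acids and albumin were added for αTC1, and more serum and sodium pyruvate for βTC6. Line and medium therefore cannot be told apart. Nothing says whether replicates were separate cultures, so p-values measure the spread between these libraries, which may be technical.

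A beta cell couples glucose to insulin release by oxidizing nearly all of its pyruvate in mitochondria. Lactate dehydrogenase A turns pyruvate into lactate, and the plasma membrane carrier MCT1, encoded by Slc16a1, moves lactate and pyruvate across the membrane. Beta cells that make MCT1 can release insulin when blood pyruvate or lactate rises, as it does in exercise, and this is the best known reason why a beta cell keeps such genes low. The other members are broadly expressed genes of lipid, amino acid and detoxification metabolism, growth factor and chemokine signalling, RNA decay and the control of small GTPases.

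The lines carried the markers of their names. Gcg stood at 12929 FPKM (fragments per kilobase of transcript, scaled to the depth of the library, so that levels are per length) in αTC1 and 229 FPKM in βTC6, whereas Ins2 stood at 0.34 and 30081 FPKM. All 6 beta cell markers passed the test toward βTC6, and 4 of 5 alpha cell markers passed it toward αTC1. The delta cell hormone gene Sst was at 256 FPKM in βTC6 and at 0 in αTC1. Hhex, the other delta cell marker, was near 0 in both lines, at 0.06 to 0.13 FPKM in αTC1 and 0 to 0.02 FPKM in βTC6. Of 7 mesenchymal markers 6 were under 1 FPKM in every library, as were 4 of 5 blood markers and 4 of 4 endothelial markers, with Col3a1, Lum, Ptprc and Cdh5 between 0 and 0.02 FPKM. Their summed levels ran from 1.38 to 2.45 FPKM in αTC1 and from 0.29 to 0.43 FPKM in βTC6 for the mesenchymal list, and Col1a2 made up most of it in αTC1. Of the exocrine list Sox9 was the gene above 1 FPKM, at 4.05 to 4.42 FPKM in αTC1 and 0 in βTC6. RNA-seq libraries held 21954031 to 26033482 estimated counts, and pure ATAC-seq libraries 4397851 to 10374903 reads in peaks.

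Libraries of a line were not equally far apart. Over genes, αTC1 RNA-seq libraries 1 and 2 differed with a chi-square per degree of freedom of 2.06, where 1 is sampling noise alone, against 27.8 and 29.3 for the pairs with library 3 and 17.3 to 38.4 between βTC6 libraries. Over peaks, pairs within ATAC-seq libraries 1 to 3 of a line gave 2.05 to 2.55 and the other pairs 4.47 to 11.3. Each pair differed by more than sampling noise and was kept apart. Counting the close libraries as 1 left the calls on the members as they are given here, 4 and 3 genes and 6 and 6 peaks.

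The 10 genes split by direction in these lines. Ldha, Slc16a1 and Pdgfra were higher in αTC1, whereas Acot7, Oat, Cxcl12 and Igfbp4 were higher in βTC6. A direction between these lines does not say whether a gene was low in βTC6: by mean FPKM there, Ldha was at the 91.0 percentile of all genes, Acot7 at the 79.5 and Cxcl12 at the 64.1. A gene was called differentially expressed (DE) at an adjusted p under 0.05 with a log2 fold change beyond 2 in size, always βTC6 over αTC1, from edgeR's quasi-likelihood test. Over all 12195 genes tested, 10.2% were DE toward βTC6 and 4.08% toward αTC1, beside 4 and 3 of the 7 members tested. With no demand on size, 38.7% passed the test toward βTC6 and 36% toward αTC1, and 77.7% did not overlap in FPKM between lines. Acot7, Oat, Cxcl12 and Pdgfra entered the test only through the line in which they were high, so their calls were fixed in part by the filter of 1 FPKM in all libraries of either line. Mgst1, Zfp36l1 and Arhgdib stayed below it. In bulk RNA, fewer expressing cells and less RNA per cell cannot be told apart.

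**Figure D1:**
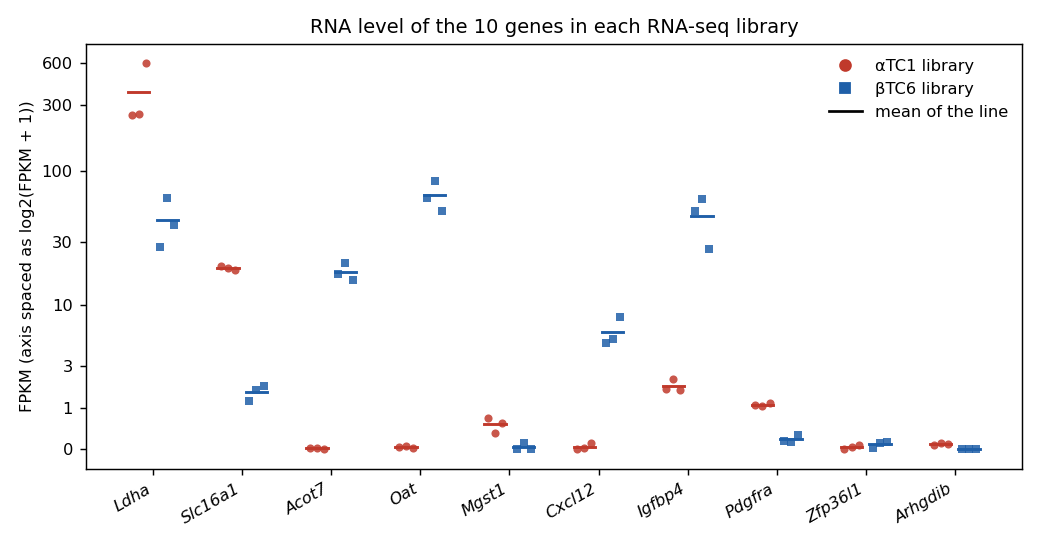
FPKM of the 10 genes in each RNA-seq library, 3 of αTC1 (circles) and 3 of βTC6 (squares), with lines at the means, on an axis spaced as log2(FPKM + 1). Ldha and Slc16a1 lie higher in every αTC1 library, Acot7, Oat, Cxcl12 and Igfbp4 higher in every βTC6 library, and Zfp36l1 and Arhgdib near 0 in both.

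The promoters of Ldha, Slc16a1 and Oat are shown first, as examples of metabolic members whose start peak moved with their RNA, which those of Acot7 and Cxcl12 did too. Each is the 200 bases before the start site, 5′ to 3′ on the gene's strand, in mm9: Ldha at chr7:54100974-54101173 (plus), Slc16a1 at chr3:104442387-104442586 (plus) and Oat at chr7:139768082-139768281 (minus). They are RefSeq promoters that matched the mm9 genome at 1 place each. None overlaps an annotated exon. Capitals mark exact matches, on either strand, to the E-box CACGTG, to its inner letters ACGTG, to the CCAAT box, to the GC box GGGCGG or to the TATA box TATAAA.
Ldha promoter: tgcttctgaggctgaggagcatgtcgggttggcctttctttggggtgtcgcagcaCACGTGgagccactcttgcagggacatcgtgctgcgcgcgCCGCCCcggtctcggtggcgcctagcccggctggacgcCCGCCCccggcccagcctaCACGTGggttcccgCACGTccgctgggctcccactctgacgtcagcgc
Slc16a1 promoter: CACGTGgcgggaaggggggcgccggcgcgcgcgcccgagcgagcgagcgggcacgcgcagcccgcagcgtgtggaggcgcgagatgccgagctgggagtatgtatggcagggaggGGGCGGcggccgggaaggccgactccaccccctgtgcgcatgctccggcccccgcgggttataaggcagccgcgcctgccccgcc
Oat promoter: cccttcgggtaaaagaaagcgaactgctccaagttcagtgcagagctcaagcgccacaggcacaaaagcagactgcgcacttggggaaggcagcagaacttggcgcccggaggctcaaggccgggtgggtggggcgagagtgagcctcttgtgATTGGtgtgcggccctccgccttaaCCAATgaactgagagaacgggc

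CACGTG stood in the windows of both Ldha, at positions 56 and 153, and Slc16a1, at position 1, and in 5.26% of the 32851 RefSeq promoters cut to the same length. Ldha held a further ACGTG on the reverse strand at position 167, and ACGTG stood in 13.95% of promoters. GGGCGG stood at positions 96 and 134 of the Ldha window and at position 116 of the Slc16a1 window, and the Oat window held CCAAT at positions 154 and 179. GGGCGG stood in 31.0% of promoters, CCAAT in 29.3% and TATAAA in 9.96%. GC content was 70% for Ldha, 77.5% for Slc16a1 and 60% for Oat, against a median of 53% over promoters. A match is a description of the letters and not of binding.

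Ldha (chr7:54096845-54110997, plus strand) was the most abundant member in αTC1, at the 99.3 percentile of all genes by FPKM, and at the 91.0 percentile in βTC6. It stood at 255, 255 and 597 FPKM in αTC1 libraries 1 to 3 and at 27.6, 63.0 and 40.1 FPKM in βTC6 libraries 1 to 3. The lines did not overlap, but library 3 of αTC1 stood apart from the others. The log2 fold change was -3.02 (SE 0.41, adjusted p = 0.000128), 8.13-fold lower in βTC6, and without αTC1 library 3 it was -2.48. Estimated counts of Ldha were not whole in αTC1 library 3, at 23548.93, or in the 3 βTC6 libraries, at 1117.96, 2572.99 and 1549.11, which means that RSEM shared some reads between Ldha and near-identical sequences, so its level carries that uncertainty.

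Slc16a1 (chr3:104442591-104462385, plus strand), the MCT1 carrier, had the smallest standard error of the 7 members tested. It stood at 19.7, 19.3 and 18.4 FPKM in αTC1 and at 1.22, 1.66 and 1.87 FPKM in βTC6, with no overlap. The log2 fold change was -3.54 (SE 0.15, adjusted p = 8.24e-08), 11.6-fold lower in βTC6. The pair thus moved the same way, and βTC6 still held Ldha at 43.5 FPKM on average when Slc16a1 was at 1.58 FPKM on the same per-length scale.

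The Ldha start peak, chr7:54100700-54101580, lay over an exon, with its centre 34 bp upstream of the start the distances use. That start lies inside the gene range given above. The peak had 14.7, 18.4, 17.1, 14.9 and 19.2 normalized reads in αTC1 libraries 1 to 5 and 7.24, 10.7, 7.97, 6.28 and 6.01 in βTC6. All αTC1 libraries were higher than all βTC6 libraries. Peaks were tested with limma on log2(normalized reads + 1), a scale that understates changes of low peaks, and the log2 fold change here was -1.07 (SE 0.16, adjusted p = 4.09e-06). A peak was called differentially accessible (DA) only past a log2 fold change of 2 in size, so this one was not. Over all peaks 39.9% passed the test toward βTC6 and 38.1% toward αTC1, and 12.9% and 5.38% were DA. The quantile-normalized split of DA peaks was 52.5% toward βTC6 instead of 70.6%.

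All 3 Ldha peaks passed the test toward αTC1. The DA peak, chr7:54076544-54076869, lay 24.5 kb upstream in an exon of the pseudogene Gm9392, where reads can be shared with near-identical copies. It had 7.97 to 10.1 normalized reads in αTC1 against 0.0939 to 1.64 in βTC6, with no overlap. The log2 fold change was -2.66 (SE 0.25, adjusted p = 6.13e-09). Its βTC6 values rested on 1 to 8 reads per library, and 1 read was the lowest value any peak had.

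The Slc16a1 start peak, chr3:104441854-104443398 (centre 39 bp downstream, over the first exon), was the strongest start peak of the members in αTC1. It had 59.4, 58.6, 62.8, 47.8 and 55.5 normalized reads in αTC1 and 20.9, 14.6, 20.7, 15.1 and 19.1 in βTC6. The lines were apart in every library, by a log2 fold change of -1.61 (SE 0.12, adjusted p = 1.73e-10), 3.05-fold. Accessibility there thus differed less than the RNA did, and βTC6 kept an open promoter peak of 18.1 ± 3.03 (SD, n = 5).

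Slc16a1 had 8 peaks, of which 6 passed toward αTC1, 1 toward βTC6 and 1 did not pass. Both DA peaks lay between genes, downstream of the start. The peak chr3:104474076-104474775, 31.8 kb away, had 15.2 to 21.0 normalized reads in αTC1 against 0.205 to 1.88 in βTC6 (log2 fold change -3.04, SE 0.24, adjusted p = 5.96e-10). The peak chr3:104470959-104471404, 28.6 kb away, had 10.6 to 13.5 in αTC1 against 0.410 to 2.16 in βTC6 (log2 fold change -2.94, SE 0.24, adjusted p = 9.46e-10). In βTC6 these values rested on 1 to 20 reads per library at the first and on 2 to 16 reads at the second.

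**Figure D2:**
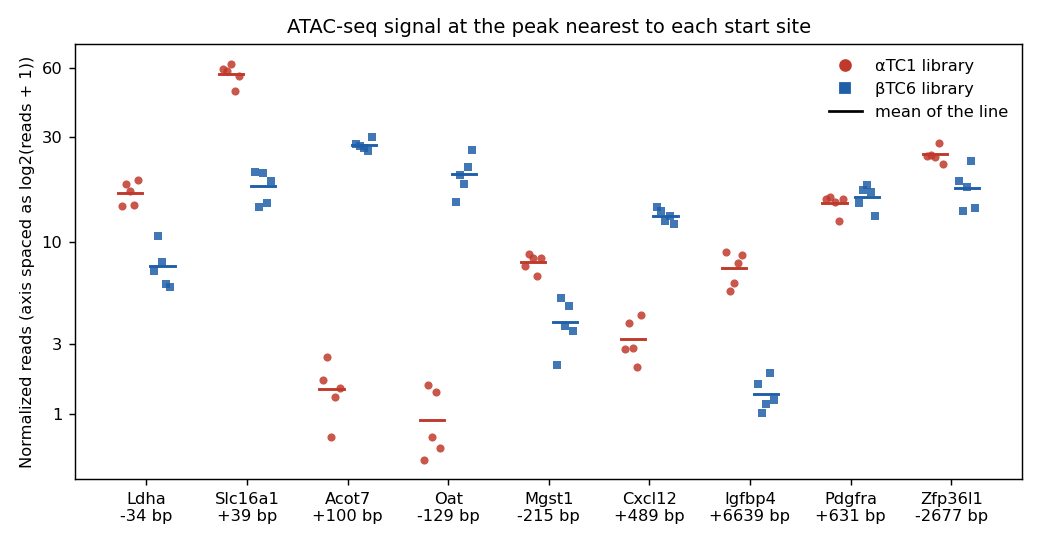
Normalized ATAC-seq reads, on an axis spaced as log2(reads + 1), in the 5 libraries of each line at the peak assigned to each gene that lies nearest to its start, with lines at the means and the distance from the start under each name. The lines overlap at Pdgfra and Zfp36l1 and at no other gene.

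The genes around lactate and pyruvate gave a mixed picture. Of the 9 tested genes of that list, 3 passed the test toward βTC6 and 4 toward αTC1, with a median log2 fold change of -0.38 beside 0.01 over all genes tested. Ldhb, the other main lactate dehydrogenase subunit, was DE toward αTC1 (66.2 ± 8.58 against 9.09 ± 3.51 FPKM, SD, n = 3; log2 fold change -2.81, SE 0.23), so both subunits were lower in βTC6. Pdk1, a kinase that holds pyruvate dehydrogenase off, passed toward αTC1 (log2 fold change -1.67), and of the subunits of that enzyme Pdhb passed toward βTC6 (1.11) and Pdha1 toward αTC1 (-0.38). Bsg, the chaperone that brings MCT1 to the membrane, passed toward αTC1 at -1.06.

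Library 3 of αTC1 was high in several of these genes. Slc16a3, the lactate exporter MCT4, stood at 14.1, 15.3 and 44.0 FPKM in αTC1 and did not pass the test (log2 fold change -0.81, adjusted p = 0.104). Bsg stood at 737, 752 and 1539 FPKM there and Pdk1 at 24.4, 24.7 and 57.2 FPKM. Slc16a1, Ldhb and Pdhb were not high in that library, and its part in the Ldha result is the change to -2.48 given above.

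Acot7 (chr4:151552243-151645964, plus strand) encodes a cytosolic acyl-CoA thioesterase, which splits fatty acyl-CoA into fatty acid and coenzyme A. It stood at 0.03, 0.03 and 0 FPKM in αTC1 and at 17.2, 20.9 and 15.50 FPKM in βTC6. The gene was near 0 in every αTC1 library and at the 79.5 percentile of genes in βTC6. With 2 counts in αTC1 over 3 libraries and 1970 in βTC6, the ratio of depth-scaled counts was 919 (95% counting interval 254 to 7596, counting error only), and the fitted log2 fold change of 9.66 (SE 0.35, adjusted p = 3.68e-08) depends on the prior count at such low values.

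Its start peak, chr4:151551782-151552835 (centre 100 bp downstream, over the first exon), had 1.82, 2.53, 0.601, 1.36 and 1.59 normalized reads in αTC1 and 27.8, 27.3, 26.9, 25.97 and 29.9 in βTC6. The log2 fold change was 3.51 (SE 0.20, adjusted p = 5.24e-12) and the peak was DA. The other Acot7 peak, 14.5 kb into the gene, overlapped between lines and did not pass. Accessibility thus differed at the start site and not detectably inside the gene.

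Among 5 tested acyl-CoA thioesterases of other genes, 3 passed toward βTC6 and none toward αTC1. The median log2 fold change was 0.64 beside 0.01 over all genes. Acot11, which also acts on long acyl chains, was DE toward βTC6 (0.267 ± 0.0666 against 5.83 ± 0.788 FPKM, log2 fold change 4.74) and entered the test only through βTC6, and Acot9 and Acot8 passed at 0.93 and 0.64.

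Oat (chr7:139749158-139768081, minus strand) encodes ornithine aminotransferase, the mitochondrial enzyme that links ornithine to proline and glutamate. It stood at 0.04, 0.06 and 0.02 FPKM in αTC1 and at 62.9, 84.8 and 51.0 FPKM in βTC6, the highest level of any member in βTC6. The lines were far apart in all libraries. Its 6 counts in αTC1 and 10950 in βTC6 gave a ratio of depth-scaled counts of 1703 (95% counting interval 782 to 4642), with a fitted log2 fold change of 10.70 (SE 0.35, adjusted p = 2.17e-08).

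The Oat start peak, chr7:139767838-139768581 (centre 129 bp upstream, over the first exon), had 0.280, 1.69, 0.601, 1.501 and 0.433 normalized reads in αTC1 and 15.3, 20.3, 18.4, 21.97 and 26.3 in βTC6. It was DA toward βTC6 (log2 fold change 3.54, SE 0.24, adjusted p = 7.32e-11). Next to it, chr7:139767338-139767670 in an intron annotated to Oat and Fgfr2, 577 bp downstream, had 0.140 to 0.578 in αTC1 against 6.77 to 13.98 in βTC6 (log2 fold change 3.16). In αTC1 the values rested on 2 to 12 reads per library at the start peak and on 1 to 4 at the peak next to it. These 2 peaks and the RNA moved the same way. Another DA peak, chr7:139747777-139748111, 20.1 kb downstream in an annotated Fgfr2 intron, had 0.409 to 2.31 and 6.39 to 12.9 (log2 fold change 2.21), and it lost that call under quantile normalization at 1.80.

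A peak of the same gene went the other way. Of the 5 Oat peaks 3 passed toward βTC6, 1 did not pass, and 1, chr7:139766167-139766592, passed toward αTC1 with 5.90 ± 1.5 normalized reads in αTC1 against 1.75 ± 0.866 in βTC6 (log2 fold change -1.35). The other ornithine and proline enzymes showed no single direction: of 7 tested, 3 passed toward βTC6 and 2 toward αTC1, with a median of 0.13. Odc1, which takes ornithine to putrescine, passed toward αTC1 (260 ± 46.2 against 77.7 ± 5.32 FPKM, -1.67), and Glul, which makes glutamine, passed toward βTC6 at 0.92.

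Mgst1 (chr6:138088837-138105276, plus strand) encodes a membrane-bound glutathione transferase. It was low in both lines, at 0.69, 0.31 and 0.56 FPKM in αTC1 and 0, 0.11 and 0 FPKM in βTC6, and it was under the filter. The lines did not overlap at 27 and 2 counts, a ratio of depth-scaled counts of 14.5 toward αTC1 (95% counting interval 3.64 to 126). Without the filter the fitted log2 fold change was -3.62 (SE 0.91, adjusted p = 0.00411).

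The Mgst1 start peak, chr6:138088528-138089158 (centre 215 bp upstream of the start the distances use, over an exon), had 7.70, 8.71, 8.42, 6.82 and 8.38 normalized reads in αTC1 and 2.27, 5.33, 3.78, 4.85 and 3.57 in βTC6. Its log2 fold change was -0.89 (SE 0.21, adjusted p = 0.000626), without overlap. Of its 7 peaks, 4 passed toward βTC6 and 1 toward αTC1. The peak chr6:138308979-138309687, 220 kb downstream between genes, had 2.17 to 3.36 normalized reads in αTC1 and 10.1, 11.7, 10.9, 12.4 and 34.6 in βTC6. It was DA at a log2 fold change of 2.01 (SE 0.26), and it was no longer DA without βTC6 library 5 (1.70) or without αTC1 library 5 (1.95), nor under quantile normalization (1.72). In the same assay the 6 mixtures with 40% to 90% βTC6 cells had 14.3, 14.5, 20.3, 17.3, 29.9 and 28.1 normalized reads in order of that share, each more than the other 4 pure βTC6 libraries.

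The related glutathione transferases divided by gene. Of 9 tested, 3 passed toward βTC6 and 5 toward αTC1, with a median of -0.32. Gstk1 (-4.06) and Gsto1 (-3.65) were DE toward αTC1, Gsto1 at 44.8 ± 1.24 against 3.46 ± 1.11 FPKM. Gstm2 (2.20) and Gstm1 (2.00, 33.8 ± 6.40 against 131 ± 24.3 FPKM) were DE toward βTC6. Gstk1 entered the test only through αTC1 and Gstm2 only through βTC6. Mgst3, the closest expressed counterpart of Mgst1, stood at 15.6 ± 0.483 and 10.4 ± 1.08 FPKM and passed toward αTC1 at -0.53.

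Cxcl12 (chr6:117118553-117131385, plus strand) encodes a secreted chemokine that attracts cells bearing the receptor CXCR4. It stood at 0, 0.02 and 0.11 FPKM in αTC1 and at 4.78, 5.24 and 8.02 FPKM in βTC6. No library of αTC1 came near those of βTC6. The ratio of depth-scaled counts was 151 from 6 and 971 counts (95% counting interval 69.1 to 413), and the fitted log2 fold change was 7.22 (SE 0.55, adjusted p = 2.93e-06). Library 3 of αTC1 held 5 of the 6 counts, and without it the fitted log2 fold change was 8.96.

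Cxcl12 had the most peaks of the members, 16, and they did not share a direction: 5 passed toward βTC6, 8 toward αTC1 and 3 did not pass. The start peak, chr6:117118569-117119515 (centre 489 bp downstream, over the first exon), had 2.80, 3.93, 2.86, 2.18 and 4.33 normalized reads in αTC1 and 14.5, 13.9, 12.6, 13.1 and 12.1 in βTC6. It went with the RNA (log2 fold change 1.78, SE 0.19, adjusted p = 4.02e-08). Its 3 DA peaks all lay between genes, 1 more open in βTC6 and 2 more open in αTC1.

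The Cxcl12 DA peak toward βTC6, chr6:117064556-117065209, lay 53.7 kb upstream and had 2.25 to 6.50 normalized reads in αTC1 against 29.3 to 42.3 in βTC6 (log2 fold change 2.74, SE 0.19, adjusted p = 8.81e-11). The larger of those toward αTC1, chr6:117159971-117161002, lay 41.9 kb downstream and had 27.6 to 50.8 in αTC1 against 1.85 to 5.33 in βTC6 (log2 fold change -3.02, SE 0.20, adjusted p = 4.22e-11). The other, chr6:116930348-116931092, 188 kb upstream, had 11.2 to 19.8 in αTC1 against 1.64 to 3.55 in βTC6 (log2 fold change -2.06), and it was no longer DA without αTC1 library 4 (-1.96) or without βTC6 library 2 (-1.92).

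The middle 200 bases of 1 distal peak of Slc16a1 and of this Cxcl12 pair are printed because these were the distal DA peaks of largest change of the 2 genes, the Cxcl12 pair with 1 peak in each direction. For Slc16a1 that order is not firm, since the peak 28.6 kb downstream had the larger change under several alternatives, among them edgeR on recovered reads (-3.87 against -3.57), a pseudocount of 0.5 (-3.41 against -3.39), libraries 4 and 5 alone (-3.08 against -2.79), libraries 1 to 3 averaged (-2.999 against -2.933) and the fits without βTC6 library 2 or 3. All are on the plus strand of mm9, outside annotated exons: chr3:104474326-104474525, chr6:117064783-117064982 and chr6:117160387-117160586 in that order. Capitals mark exact matches on either strand to TAATTA (the core of homeodomain factors), TGTTTAC (forkhead), CAGCTG (an E-box) or TGANTCA (AP-1, N being any base).
Slc16a1 peak 31.8 kb downstream: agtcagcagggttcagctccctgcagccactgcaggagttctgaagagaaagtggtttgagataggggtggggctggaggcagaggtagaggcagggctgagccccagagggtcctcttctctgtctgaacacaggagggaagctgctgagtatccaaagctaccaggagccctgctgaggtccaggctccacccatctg
Cxcl12 peak 53.7 kb upstream: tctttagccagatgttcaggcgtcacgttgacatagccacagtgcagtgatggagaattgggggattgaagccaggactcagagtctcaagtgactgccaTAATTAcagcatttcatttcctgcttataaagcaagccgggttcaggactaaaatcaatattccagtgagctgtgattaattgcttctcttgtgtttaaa
Cxcl12 peak 41.9 kb downstream: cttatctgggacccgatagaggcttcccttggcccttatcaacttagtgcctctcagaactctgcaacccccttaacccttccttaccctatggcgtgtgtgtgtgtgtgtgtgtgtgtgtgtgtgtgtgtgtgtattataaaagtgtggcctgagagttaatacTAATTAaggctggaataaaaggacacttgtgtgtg

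TAATTA stood once in each of the Cxcl12 windows, at positions 101 and 166, although the peaks differed in opposite directions. It stood in 6.93% of all 65053 peaks cut to their middle 200 bases, TGTTTAC in 6.31%, CAGCTG in 17.2% and TGANTCA in 10.6%. The Slc16a1 window held none of these letters.

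Of the receptors and the peptidase of CXCL12, 2 were DE toward βTC6, and both entered the test only through βTC6. Cxcr4, the main receptor gene, was DE toward βTC6 (0.487 ± 0.218 against 2.15 ± 0.300 FPKM, log2 fold change 2.21, adjusted p = 0.00034). Dpp4, the membrane peptidase that trims CXCL12 and incretins, was DE toward βTC6, at 13.7, 7.22 and 9.25 FPKM against 0, 0 and 0.01 FPKM. Cxcr7, the scavenger receptor, was under the filter, at 0.29, 0.25 and 0.04 FPKM in αTC1 and 0.01, 0.01 and 0 FPKM in βTC6.

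Igfbp4 (chr11:98902558-98913969, plus strand) encodes a secreted protein that binds insulin-like growth factors. It stood at 1.73, 2.21 and 1.67 FPKM in αTC1 and at 50.8, 62.5 and 26.4 FPKM in βTC6. The lines did not overlap, and βTC6 varied more, by an SD of 18.4 FPKM around 46.6. The log2 fold change was 3.79 (SE 0.29, adjusted p = 3.01e-06), 13.9-fold higher in βTC6. Its estimated counts were not whole in any library of either line, so reads were shared with other sequences.

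Igfbp4 was the member whose only peak went against its RNA. That peak, chr11:98909083-98909342, lay in an intron 6.64 kb downstream of the start and had 8.96, 5.76, 6.31, 7.92 and 8.67 normalized reads in αTC1 and 1.70, 1.03, 1.22, 2.00 and 1.31 in βTC6. Every αTC1 library was higher (log2 fold change -1.80, SE 0.21, adjusted p = 1.73e-07). It became DA with edgeR on the recovered reads (-2.35), with a pseudocount of 0.5 (-2.04) and under quantile normalization (-2.19). No peak nearer to that start was assigned to the gene, but another annotated start of Igfbp4 lay 588 bp from the centre of this peak.

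Of 4 tested genes of the IGF binding protein, ligand and peptidase list, 3 were DE toward βTC6 and 1 toward αTC1, but Igf2 and Igfbp7 entered the test only through βTC6 and Igfbp5 only through αTC1, so the filter fixed those calls in part. Igf2, the growth factor itself, stood at 0.12, 0.02 and 0.06 FPKM in αTC1 and at 415 ± 39.2 FPKM in βTC6. Igfbp7 was listed at 0 in αTC1 and at 29.8 ± 6.62 FPKM in βTC6, and Pappa2, a protease that cuts IGF binding proteins, at 6.82 ± 2.95 and 177 ± 69.8 FPKM. Igfbp5 was the gene DE toward αTC1 (1.46 ± 0.0929 against 0.290 ± 0.0173 FPKM, -2.27).

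Pdgfra (chr5:75548316-75594229, plus strand) encodes a platelet-derived growth factor receptor, used as a marker of mesenchymal cells. It was low in both lines, at 1.09, 1.04 and 1.17 FPKM in αTC1 and at 0.15, 0.13 and 0.28 FPKM in βTC6. The αTC1 libraries lay just above the filter of 1 FPKM and the lines did not overlap. The log2 fold change was -2.51 (SE 0.28, adjusted p = 3.32e-05). On log2(FPKM + 1) with limma it was -0.83, short of the size needed for a call. Mesenchymal markers at or near 0, with Col1a2 at 1.26 to 2.12 FPKM in αTC1, stand beside this result, and their part in it was not tested.

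The Pdgfra start peak, chr5:75552311-75553332, had its centre 631 bp downstream of the start the distances use, which lies inside the gene range. Its normalized reads were 15.8, 16.2, 15.3, 12.6 and 15.7 in αTC1 and 15.2, 17.4, 18.2, 17.0 and 13.1 in βTC6. These overlapped and the test was not passed (log2 fold change 0.09, SE 0.13, adjusted p = 0.526). The other Pdgfra peak, chr5:75539186-75539453, 8.996 kb upstream between genes, had 1.88 to 5.26 normalized reads in αTC1 and 0.71 to 3.78 in βTC6, which overlapped, and it passed toward αTC1 (log2 fold change -0.73, SE 0.26, adjusted p = 0.016). Of its ligands, only Pdgfa was expressed above the filter, and it passed toward αTC1 (20.7 ± 1.90 against 11.9 ± 1.85 FPKM, -0.67). The sister receptor gene Pdgfrb stood at 0.04 to 0.07 FPKM in αTC1 and 0 to 0.01 FPKM in βTC6.

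Zfp36l1 (chr12:81208747-81214000, minus strand) encodes a protein that binds AU-rich RNA and speeds its decay. It was near 0 in both lines, at 0, 0.04 and 0.08 FPKM in αTC1 and 0.03, 0.12 and 0.13 FPKM in βTC6. These values overlapped, and without the filter the log2 fold change was 1.14 (SE 0.82, adjusted p = 0.262). Its relatives were expressed: Zfp36 passed toward βTC6 at 1.41 (6.43 ± 1.15 against 16.6 ± 9.65 FPKM) and Zfp36l2 toward αTC1 at -1.08 (22.8 ± 1.34 against 10.3 ± 0.898 FPKM).

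Peaks were found around Zfp36l1 although its RNA was near 0. It had 9 peaks, 2 passing toward βTC6 and 6 toward αTC1. The nearest, chr12:81216125-81217229, 2.68 kb upstream, had 24.8, 25.003, 24.5, 28.3 and 22.8 normalized reads in αTC1 and 19.0, 13.9, 18.0, 23.5 and 14.4 in βTC6, which overlapped (log2 fold change -0.50, SE 0.13, adjusted p = 0.00195). Its DA peak, chr12:80860000-80860903, lay 354 kb away in an intron of Rad51l1 and had 42.3 to 58.1 in αTC1 against 4.99 to 9.84 in βTC6 (log2 fold change -2.73, SE 0.15, adjusted p = 3.59e-12).

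Arhgdib (chr6:136872044-136890420, minus strand) encodes a GDP dissociation inhibitor of small GTPases best known from blood cells. It had 2, 3 and 3 counts in αTC1 libraries and 0 in each βTC6 library, at or under the floor of 3 counts that a count of 0 allows, so no fold is given. Without the filter it passed edgeR's test toward αTC1 (adjusted p = 0.022). The blood cell list summed to 1 to 3.32 FPKM in αTC1 and 2.63 to 3.83 FPKM in βTC6, most of it Coro1a, with Ptprc at 0 to 0.02 FPKM. Arhgdib had no assigned peak, and the closest peak to its start had its centre 8722 bp away and was assigned to Erp27. Arhgdia, the widely expressed inhibitor, stood at 210 ± 2.93 and 300 ± 6.79 FPKM and passed toward βTC6 at 0.57. Arhgdig (4.49) and the GTPase gene Rhoc (4.32) were DE toward βTC6, though both entered the test only through βTC6. In that list, with these 2, 7 of 8 tested passed toward βTC6 and 1 toward αTC1, with a median of 0.70.

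**Figure D3:**
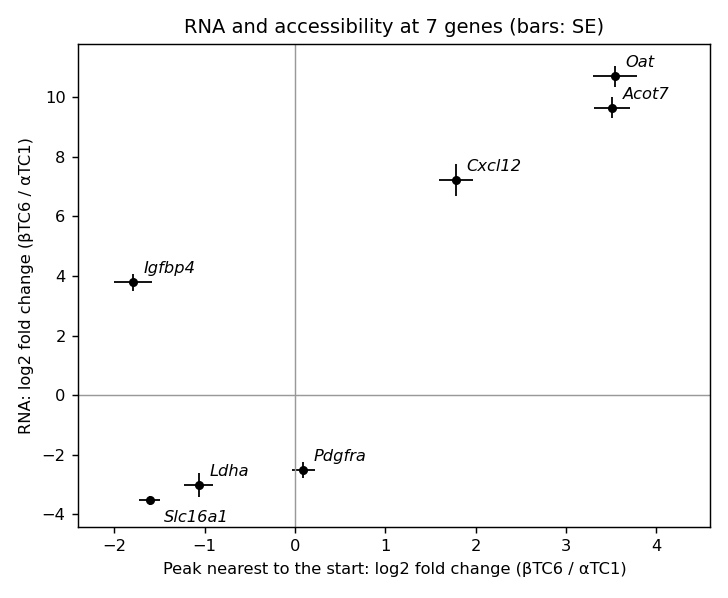
RNA log2 fold change against the log2 fold change of the peak nearest to the start, βTC6 over αTC1, for the 7 genes tested for RNA, with bars of 1 SE. Ldha and Slc16a1 lie below 0 and Acot7, Oat and Cxcl12 above 0 on both axes, Igfbp4 lies above 0 for RNA and below 0 for the peak, and Pdgfra lies near 0 for the peak.

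Over the 53 peaks, 16 passed toward βTC6, 27 toward αTC1 and 10 did not pass, beside 39.9% and 38.1% of all peaks that passed in these directions, and 31 did not overlap between lines, beside 63.9% of all peaks. DA peaks numbered 6 in each direction, beside 12.9% of all peaks toward βTC6 and 5.38% toward αTC1. Under quantile normalization they numbered 4 toward βTC6 and 8 toward αTC1, and over all peaks 5655 and 5126, so both splits depend on the scaling. For Slc16a1, Ldha, Acot7 and Oat each DA peak had the direction of the RNA, whereas the DA peaks of Cxcl12 went both ways and that of Mgst1 was toward βTC6 where its few RNA counts were higher in αTC1. With a pseudocount of 5 in place of 1, which shrinks low peaks, 5 of the 12 stayed DA: the start peaks of Acot7 and Oat, the Cxcl12 pair 53.7 kb upstream and 41.9 kb downstream, and the Zfp36l1 peak. Cxcl12 and Zfp36l1 each had more peaks past the test toward αTC1 than toward βTC6, at 0.11 FPKM or less of RNA in any αTC1 library.

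The mixtures give libraries that the comparison of the lines did not use. Across the 9 compositions, 14 of the 53 peaks rose with the βTC6 share and 20 with the αTC1 share at an adjusted p under 0.05 (limma slope on the share of βTC6 cells), beside 33.5% and 24.8% of all peaks. All 12 DA peaks passed in the direction of the pure lines, as did 98.6% of all DA peaks. Of the 43 member peaks that passed between lines, 34 passed here in the same direction, or 79.1%, beside 71.1% of all 50741 peaks that passed between lines. Each composition had 1 library. Without the 10% and 90% mixtures, the slopes of the start peaks of Ldha (-1.20), Cxcl12 (0.61) and Mgst1 (-1.39), of the Igfbp4 peak (-1.27) and of the Slc16a1 peak 31.8 kb downstream (-1.09) no longer passed.

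The Acot7 start peak had 3.05 normalized reads at 10% βTC6 cells, 12.7 at 50% and 22.6 at 90%, with a log2 slope of 3.18 (SE 0.35, adjusted p = 1.07e-06) from no to all βTC6 cells. The Oat start peak had 2.24, 10.7 and 20.3 at the same compositions (slope 3.17, SE 0.38). In both, the mixture with the fewest βTC6 cells lay above the highest pure αTC1 library, at 2.53 and 1.69. The Slc16a1 peak 31.8 kb downstream had 16.7, 11.3 and 3.50 normalized reads (slope -1.83, SE 0.36), and the Ldha start peak moved less, with 12.4, 10.5 and 8.74 (slope -0.87, SE 0.32, adjusted p = 0.0285). The Pdgfra start peak had 10.0 to 14.5 across the mixtures and did not pass (slope 0.32, adjusted p = 0.339).

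**Figure D4:**
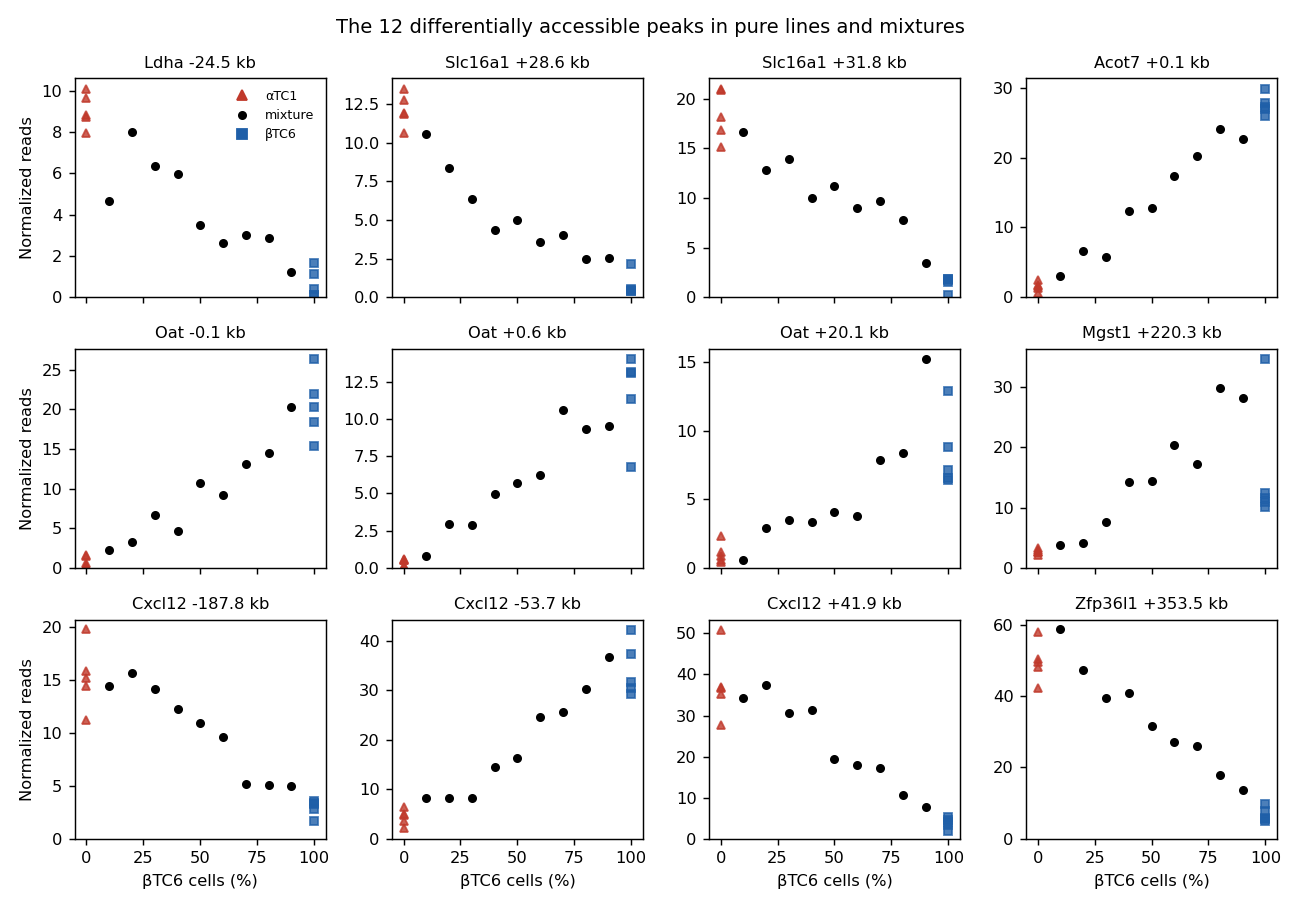
Normalized ATAC-seq reads of the 12 DA peaks against the percentage of βTC6 cells, for the 5 αTC1 libraries at 0%, the 9 mixtures and the 5 βTC6 libraries at 100%, each panel with its own axis from 0. Each slope has the direction of the pure lines, but at the Mgst1 peak 220 kb downstream 4 of 5 pure βTC6 libraries lie below every mixture from 40% βTC6 cells up, and at the Oat peak 20.1 kb downstream the 90% mixture (15.2) lies above all pure βTC6 libraries.

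The genes whose profile over the 6 RNA-seq libraries was closest to a member were named by the Euclidean distance of log2(FPKM + 1), which the level itself sets in large part. For Slc16a1 these were Diras2 (0.511) and Lrrk2 (0.529), for Acot7 Pak1 (0.194) and Itpkb (0.262), and for Oat Crp (0.365) and Akr1c19 (0.527). For Cxcl12 they were Grid1 (0.238) and Tgfb1i1 (0.281), and for Pdgfra Zglp1 (0.213) and Myom2 (0.218). Distances were larger for Igfbp4, with Xlr at 0.931 and Kif12 at 0.938, and for Ldha, with Gadd45a at 1.54. Gadd45a was even across αTC1, at 272 to 276 FPKM, where Ldha was not.

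A further 10 genes described as kept low in beta cells also went both ways. Of the 7 tested, 5 passed toward αTC1 and 2 toward βTC6, with a median log2 fold change of -1.87 beside 0.01 over all genes. Hk1, the high-affinity hexokinase, stood at 90.1, 91.5 and 119 FPKM in αTC1 and at 9.12, 10.6 and 9.14 FPKM in βTC6 (log2 fold change -3.24, SE 0.15). Smad3, a transducer of TGF-β signals, was DE toward αTC1 at -2.77. Cat, which encodes catalase, was DE toward βTC6, at 1.45 to 2.78 FPKM against 0.17 to 0.37 FPKM (log2 fold change 3.44, SE 0.37). Smad3 entered the test only through αTC1 and Cat only through βTC6. Rest, Yap1 and Itih5 were below 1 FPKM in every library of both lines.

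**Figure D5:**
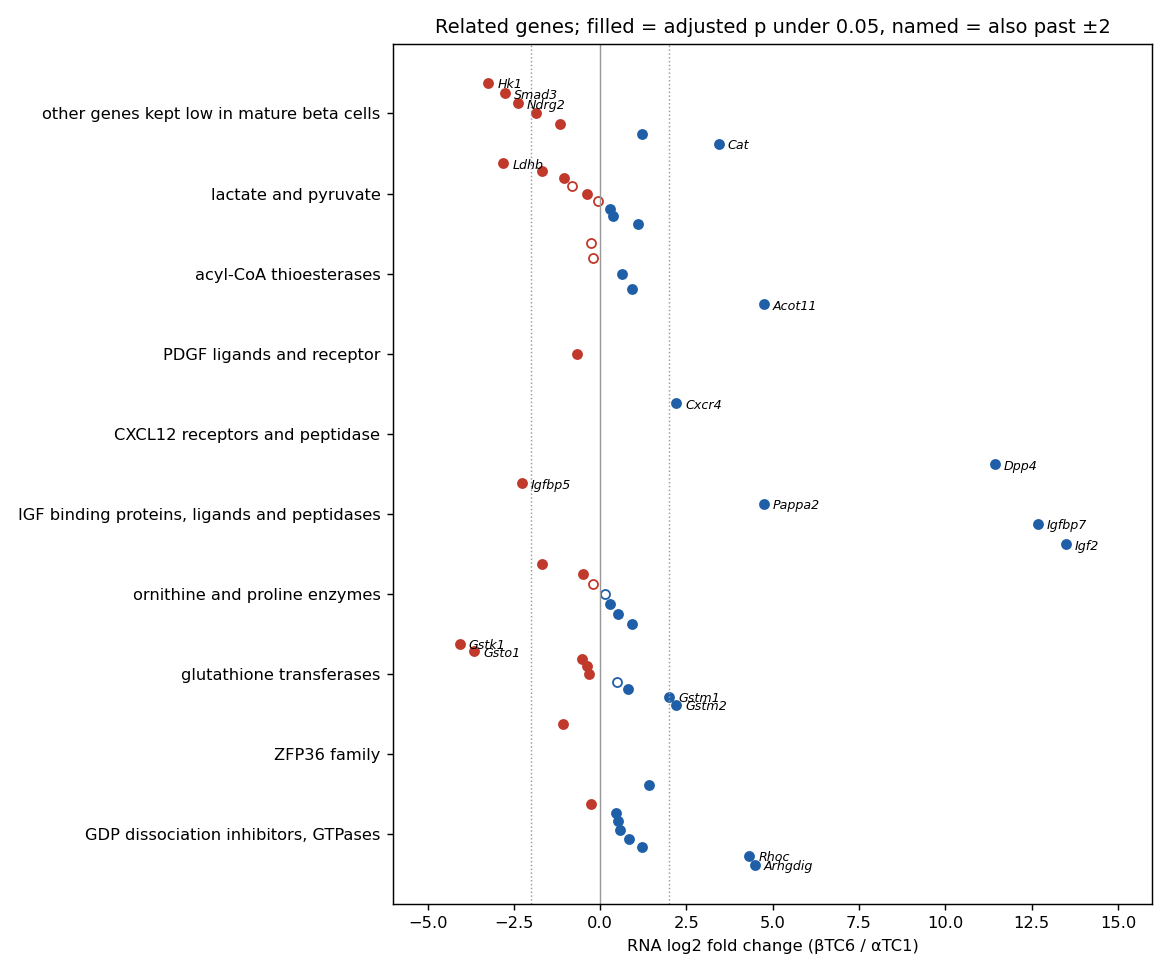
RNA log2 fold change (βTC6 over αTC1) of each tested gene of the 10 related lists, filled where the adjusted p was under 0.05 and named where the change was also past 2 in size (dotted lines). Ldhb and Hk1 lie with Ldha and Slc16a1 on the αTC1 side, and Igf2, Igfbp7 and Dpp4 lie farthest on the βTC6 side.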

How the data were processed

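ATAC-seq was measured in 19 libraries and RNA-seq in 6, grouped by the cell line and composition in the labels. The ATAC-seq signal was deposited as read counts per peak after TMM scaling. For it, the authors trimmed reads (Trimmomatic 0.32), aligned them to mm9 (BWA 0.7.9a), removed duplicates (Picard 1.95), called peaks per library (MACS2 2.1.0) and built consensus peaks (DiffBind 2.2.5), with nearest genes from HOMER 4.6, versions as in the submitters' processing notes. Dividing each library by its lowest value gave whole reads for 100% of values (tolerance 0.01 reads). The authors made the deposited expected counts and FPKM values with Trim Galore, Bowtie2 and RSEM 1.2.12 on Ensembl transcripts, from a stranded kit with RSEM at its default parameters. The authors' peak classes were not used. ERCC spike-in rows, 0.436% to 0.971% of counts, stayed out of the tests.

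Expected counts were rounded to whole numbers and tested with edgeR 4.0.16 (TMM, glmQLFit and glmQLFTest) in R 4.3.3, over the genes that reached FPKM 1 in every replicate of αTC1 or of βTC6. Peaks and mixture slopes were tested with limma 3.58.1 (trend) on log2(normalized reads + 1). Thresholds were a Benjamini-Hochberg adjusted p under 0.05 and, for DE and DA, an absolute log2 fold change over 2. DESeq2 1.42.0 was an alternative. On simulated data, 200 features with ample reads were given a log2 change of 3, or lines 8-fold apart for the mixtures. Of these edgeR called 200, limma 199 and the mixture slope 171, with 0, 0 and 8 unchanged ones. Smaller changes, and changed features with few reads, were not simulated. Tables and plots were made in Python 3.11.15. Counting intervals, at 95%, and the floor of 3 counts cover counting error only. Promoters of all 10 members were found in the RefSeq table (GRCm38.p6), and those shown were placed on mm9 by exact match.

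The members and lists were chosen with earlier results of these data known. Named were all members, for each the peak nearest to its start and up to 3 DA peaks of largest change, in each list up to 3 genes of largest change that passed, the closest counterpart genes, and the 2 nearest profiles. A gene of 1 list, 1 nearest profile and 1 promoter are not reported here. The Oat peak toward αTC1, the second peaks of Pdgfra and Acot7, Igfbp5, Pdha1, Gstm1, and the untested genes Cxcr7, Rest, Yap1 and Itih5 were named after their values were seen. Alternatives covered the tool, filter, pseudocount, normalization, replicate block, processing subsets and each library left out. Counting close libraries as 1 was added after seeing the data.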

Additional observations from a re-analysis of the deposited data

Results flagged for a closer look

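Among 19 described peaks and 38 groups of 5 libraries, 4 values lay far from the other libraries of their line by Dixon's test at 95%, where chance gives about 1 in 20 groups. At the Mgst1 peak 220 kb downstream, βTC6 library 5 had 34.6 normalized reads and the nearest other library 12.4. At the Slc16a1 peak 28.6 kb downstream, βTC6 library 3 had 2.16 and the nearest 0.568. At the Slc16a1 peak 31.8 kb downstream, βTC6 library 2, the shallowest, had 0.205, which is 1 read, and the nearest had 1.57. At the Pdgfra start peak, αTC1 library 4 had 12.6 and the nearest 15.3.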

How the results depend on the processing

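None of the 7 members tested for RNA, and none of the 19 peaks that were nearest to a start or DA, changed direction under the alternatives run; the other members and peaks were not refitted one by one. DE genes numbered 1245 toward βTC6 and 498 toward αTC1, and with limma on log2(FPKM + 1) 702 and 277, where low genes shrink by construction. Without the FPKM filter, with more genes tested, they numbered 2510 and 1020, and members toward αTC1 rose from 3 to 5. DA peaks numbered 8409 and 3502, with 6 and 6 at members. With edgeR on recovered reads they numbered 13794 and 5739, with 8 and 9 at members. The Cxcl12 start peak was among these at 2.03, and the cause was not tested. With a pseudocount of 5 they numbered 1668 and 819, with 3 and 2 at members. Without the 10% and 90% mixtures, with fewer libraries, peaks rising with αTC1 fell from 16151 to 9555, and those of members from 20 to 11.

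Leaving out each library gave 1227 to 1316 and 496 to 522 DE genes, with 4 and 3 members throughout, and 8151 to 8620 and 3314 to 3714 DA peaks, with 5 to 7 and 5 to 6 members. Same-numbered libraries of the lines did not deviate together (correlations -0.04 to 0.02 for RNA-seq and -0.002 to 0.069 for ATAC-seq). With a replicate block the counts were 1241 and 503 DE genes and 8409 and 3502 DA peaks, and it changed no call on a member. Depth limits Acot7, Oat and Cxcl12, with 2, 6 and 6 counts over the αTC1 libraries, and Mgst1, with 27 and 2 in the lines.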

Other observations

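The nearest tested genes on either side of the members were looked at after the values were seen. They were mostly less changed than the members. Genes under the FPKM filter were skipped, and gaps ran from 2.38 to 1465 kb, so these need not be the adjacent genes. Gpr153, an orphan receptor gene 2.38 kb from Acot7, was listed at 0 in αTC1 and stood at 2.63 FPKM in βTC6, and Lhpp, a phosphatase gene 34.2 kb from Oat, stood at 0.977 and 13.5 FPKM (log2 fold change 3.82, SE 0.23). Both had the direction of the member beside them. Rhoc, 129.5 kb from Slc16a1, stood at 0.23 and 4.53 FPKM (log2 fold change 4.32, SE 0.32), against the direction of Slc16a1. Gpr153, Lhpp and Rhoc all entered the test only through βTC6. Around Ldha, by contrast, Gtf2h1 and Tsg101 had log2 fold changes of 0.22 and 0.32 toward βTC6, and beside Igfbp4, Top2a had -0.40.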
